A study of Mus musculus with 288 samples.

Results

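The 82 rows of the deposited count table that name a protein of the cytosolic ribosome were followed in single mouse embryonic stem cells leaving 2i. They were taken by name, as Rpl or Rps with a number and an optional a, l, x or y, together with Rpsa, Rplp0, Rplp1 and Rplp2. Rpl10l and names ending in -ps were left out. Of 54232 rows in the table, 50 members belong to the large and 32 to the small ribosomal subunit. In the GENCODE vM21 annotation 79 members are protein coding, and Rps4l, Rpl6l and Rpl32l are annotated as processed pseudogenes.

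The ribosome reads mRNA on its small subunit and joins amino acids on its large subunit, and each subunit is ribosomal RNA clothed in proteins, most of which are needed in equal number. The mRNAs of most of these proteins begin with a C followed by a run of pyrimidines, the 5′ terminal oligopyrimidine (TOP) tract, through which mTORC1 and LARP1 control their translation as a group. Many of these genes also left intronless processed copies across the genome, so that a read from a member can often be placed at several loci.

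Cells labelled E14, of strain 129/Ola, were grown in 2i and LIF, where 2i is the MEK inhibitor PD0325901 with the GSK3 inhibitor CHIR99021. They were taken at 0 h (D0), or 24 h (D1) and 48 h (D2) after the medium was changed to serum and LIF, so that all 3 groups had LIF and D1 and D2 also lacked both inhibitors. Single cells were flow sorted into 96 wells per time point and the polyA RNA of each was sequenced beside its DNA (scNMT-seq). Reads per gene were deposited without normalization, and cells with over 200000 reads, over 2000 genes and a mitochondrial share under 0.15 were kept.

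These limits left 90 cells of D0, 50 of D1 and 93 of D2. Reads per cell lay between 255040 and 10073010 in D0, between 202157 and 43336922 in D1 and between 491549 and 9812323 in D2, and the median number of detected genes was 9002, 10676 and 4744. Each time point was 1 plate of wells, for which the labels name no separate cultures, so that time cannot be separated from plate or library and the cells of a label do not replicate it. No p-value is therefore given. Values are means over cells with the SD between cells. The 8 stem cell markers used to check the label (Pou5f1, Sox2, Nanog, Zfp42, Esrrb, Dppa5a, Tdgf1 and Utf1) had a read in at least 50% of cells of each label. Their levels differed. In D1 over D0, 3 had a log2 ratio below -1 (25.1% of all genes), Nanog and Esrrb lowest, and 2 above 1 (13.2%). In D2 over D1, 4 lay above 1 (15.0%), Zfp42 and Nanog highest, and 1 below -1 (19.4%). Of 15 markers of other cells, Vim reached 50% in each label and Krt8 also in D0, 5, 3 and 4 markers had no read in D0, D1 and D2, and their summed level ran from 0 to 472, 0.185 to 1011 and 0 to 5566 CPM (reads per 1000000 reads on genes), with medians of 104, 205 and 50.1 CPM. D1 stood apart in Hprt, the purine salvage enzyme, which had a read in 48 of 50 cells of D1, 9 of 90 of D0 and 7 of 93 of D2. All labels name the same E14 cells, but D1 also divided reads between members and their near-identical copies unlike D0 and D2 (described with Rpl29). Whether D1 came from cells of another line or genotype, or was processed in another way, was not tested, and neither can be told apart from 24 h of release. Each value of D1, the height of the share at 24 h included, carries this limit. Wells of D0 and D2 with an Hprt read were not spread evenly over their plates. Of the cells with an Hprt read, 8 of 9 in D0 and 7 of 7 in D2 lay in plate columns 11 and 12, which held 16 of the 90 and 15 of the 93 passing cells, and their median number of detected genes was 9902 in D0 and 7618 in D2, against 8959 and 4734 in the cells of those labels without a read. Leaving these wells out gave a log2 ratio of the mean shares of 0.40 for D2 over D0.

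The members took a larger share of the reads in D2 than in D0, and the largest in D1. Summed over the 82 members, the share per cell was 5.53% ± 2.05 in D0 (SD, n = 90 cells), 11.2% ± 4.63 in D1 (n = 50) and 7.37% ± 1.80 in D2 (n = 93). The lowest, median and highest cell stood at 2.22%, 5.40% and 18.1% in D0, at 5.29%, 9.78% and 26.2% in D1 and at 4.47%, 7.02% and 16.5% in D2. The labels overlapped, but 49 of 50 cells of D1 and 87 of 93 of D2 lay above the median cell of D0, and 5 cells of D1 lay above its highest. The log2 ratio of the mean shares was 1.02 for D1 over D0, 0.41 for D2 over D0 and -0.60 for D2 over D1. Under other filters, averages and scalings these 3 ratios ran from 0.86 to 1.25, from 0.33 to 0.86 and from -0.87 to -0.25. Pooling the reads of all cells gave 5.13% (95% Clopper-Pearson interval 5.12% to 5.13%) for D0, 9.96% (9.96% to 9.97%) for D1 and 7.69% (7.68% to 7.69%) for D2, where the intervals cover counting error only. The 2 cells of D1 without an Hprt read had a mean of 7.78%, against 11.3% ± 4.67 in the other 48.

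**Figure D1:**
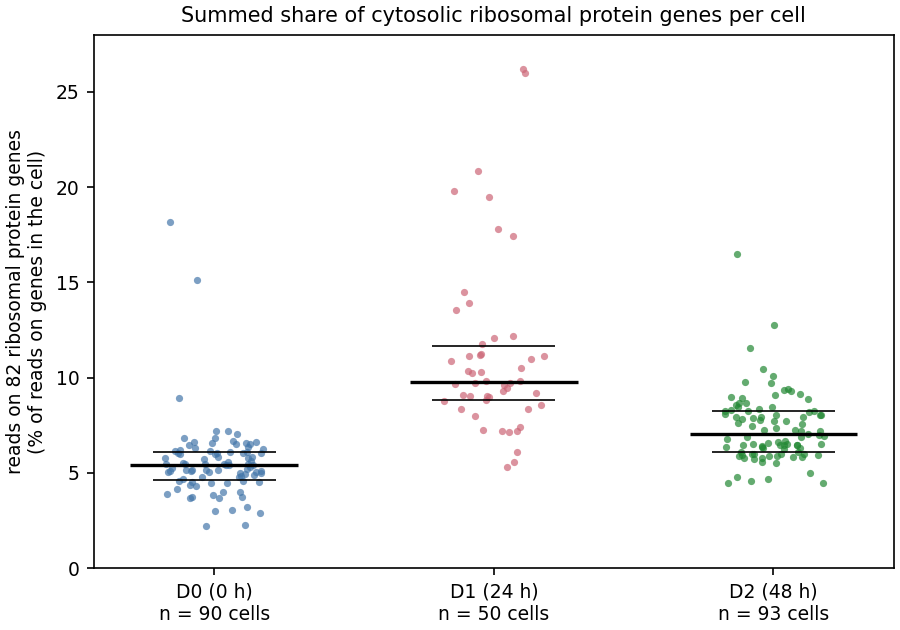
Reads on the 82 ribosomal protein genes as a percentage of the reads on genes (vertical axis), 1 point per cell, for D0, D1 and D2. Thick lines are medians (5.40%, 9.78% and 7.02%) and thin lines quartiles; the upper tail of D1 reaches 26.2%.

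Both subunits had a higher share in D1 and D2 than in D0, in nearly the same proportion. The 50 large-subunit genes took 2.97% ± 0.829 of reads in D0, 6.15% ± 2.46 in D1 and 4.03% ± 0.954 in D2, and the 32 small-subunit genes 2.56% ± 1.25, 5.05% ± 2.20 and 3.35% ± 0.879. The ratio of large to small within a cell was 1.21 ± 0.139 for D0, 1.24 ± 0.0938 for D1 and 1.21 ± 0.115 for D2. These means differ by less than the SD between cells of any label. Across the cells of a label, the large and small shares had a Spearman rho of 0.95 in D0, 0.97 in D1 and 0.91 in D2, over 90, 50 and 93 cells that share a plate and a library preparation.

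Gene by gene, the higher share of D1 was spread over nearly all members, whereas the count in D2 over D0 depended on how cells were averaged and scaled. A log2 ratio is that of the mean CPM with 1 added, for genes seen in 50% or more of cells in 1 of the labels compared. TMM scaling of the summed reads would move every ratio by 0.21 for D1 over D0, 0.28 for D2 over D0 and 0.07 for D2 over D1. In D1 over D0, 80 of 81 members so detected had a log2 ratio above 0, as did 42.7% of all 10494 genes so detected. A ratio above 1 was found for 50 members and for 13.2% of all genes, and a ratio below -1 for 1 member, Rpl24, and for 25.1% of all genes. The median was 1.12 for the members and -0.20 for all genes. In D2 over D0, 63 of 80 members lay above 0 (42.2% of all 8822 genes), 1 above 1 (9.74%) and 0 below -1 (28.1%), with medians of 0.38 and -0.24. Summed reads alone gave 65 of the 80 above 0 and a members' median of 0.59. With TMM factors on summed reads 72 of the 80 lay above 0 and the members' median was 0.87, and with median-of-ratios factors 70 and 0.82. The share of all genes above 0 was not counted with summed reads or with these factors. A scale factor moves every gene alike, so that 42.2% is not the share to set beside these counts. In D2 over D1, 10 of 81 members lay above 0 (47.4% of all 9855 genes), 1 above 1 (15.0%) and 30 below -1 (19.4%), with medians of -0.75 and -0.07. These 3 comparisons share cells pairwise. Of the 80 members detected in 50% of cells of D0 or D1 and of D0 or D2, 70 had their highest mean in D1 and 10 in D2, and 62 had their lowest in D0, 17 in D2 and 1 in D1. This order was not counted over all genes, so that these numbers have no background beside them.

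The 5 members with the largest ratios of D1 over D0 were Rpl29 (5.97), Rpl34 (2.75), Rpl38 (2.22), Rpl17 (2.19) and Rpl23a (2.10), all of the large subunit. Rpl34 was at 0.03, Rpl17 at 0.28 and Rpl23a at 0.02 in D2 over D0. Rpl38, a small protein at the surface of the large subunit, had 19.6, 166 and 2694 CPM in its lowest, median and highest cell of D0, 239, 660 and 6705 CPM in D1, and 88.7, 182 and 1042 CPM in D2. Every cell of D1 lay above the median of D0, 3 of them above its highest cell, and D2 lay close to D0 with a log2 ratio of 0.10. Apart from Rpl24, the smallest ratios were those of Rpl13a (0.01), Rpl7 (0.07), Rpl4 (0.09) and Rps20 (0.14), which in D2 over D0 were at 0.32, 0.81, 0.85 and -0.04. Rpl4, a large-subunit protein that lines the exit tunnel, had 744, 2088 and 2902 CPM in its lowest, median and highest cell of D0 and 594, 2182 and 3823 CPM in D1. In D2 its cells ran from 848 through 3757 to 9869 CPM, and 68 of 93 lay above the highest cell of D0.

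In D2 over D0, Rpl29 (1.24), Rps2 (0.98), Rplp0 (0.91), Rpl39l (0.89) and Rps19 (0.88) had the largest ratios. Rplp0 anchors the stalk of the large subunit, where the acidic proteins Rplp1 and Rplp2 sit and elongation factors dock. It stood at 1432 ± 504 CPM in D0, 3596 ± 1202 in D1 and 2696 ± 817 in D2. Its cells of D2 lay above the median of D0 in 91 of 93 cases and above its highest cell in 6. Rps2, at the mRNA entry side of the small subunit, stood at 775 ± 257, 1681 ± 741 and 1527 ± 360 CPM. Among the smallest ratios were those of Rpl39 (-0.76), Rps27 (-0.70), Rps12 (-0.60) and Rps29 (-0.58), and all 4 were higher in D1 than in D0. Rps27, a zinc-finger protein of the small subunit, had 105, 501 and 9903 CPM in its lowest, median and highest cell of D0, 368, 1341 and 13851 CPM in D1, and 147, 374 and 1058 CPM in D2. Of its cells of D2, 19 of 93 lay above the median of D0, and 45 lay below every cell of D1. In D2 over D1, Rpl29 (-4.72), Rpl34 (-2.72), Rps27 (-2.46), Rpl38 (-2.12) and Rps29 (-2.08) had the smallest ratios, and Rpl24 (3.32), Rpl4 (0.77), Rpl7 (0.74), Rps4x (0.63) and Rpsa (0.44) the largest.

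**Figure D2:**
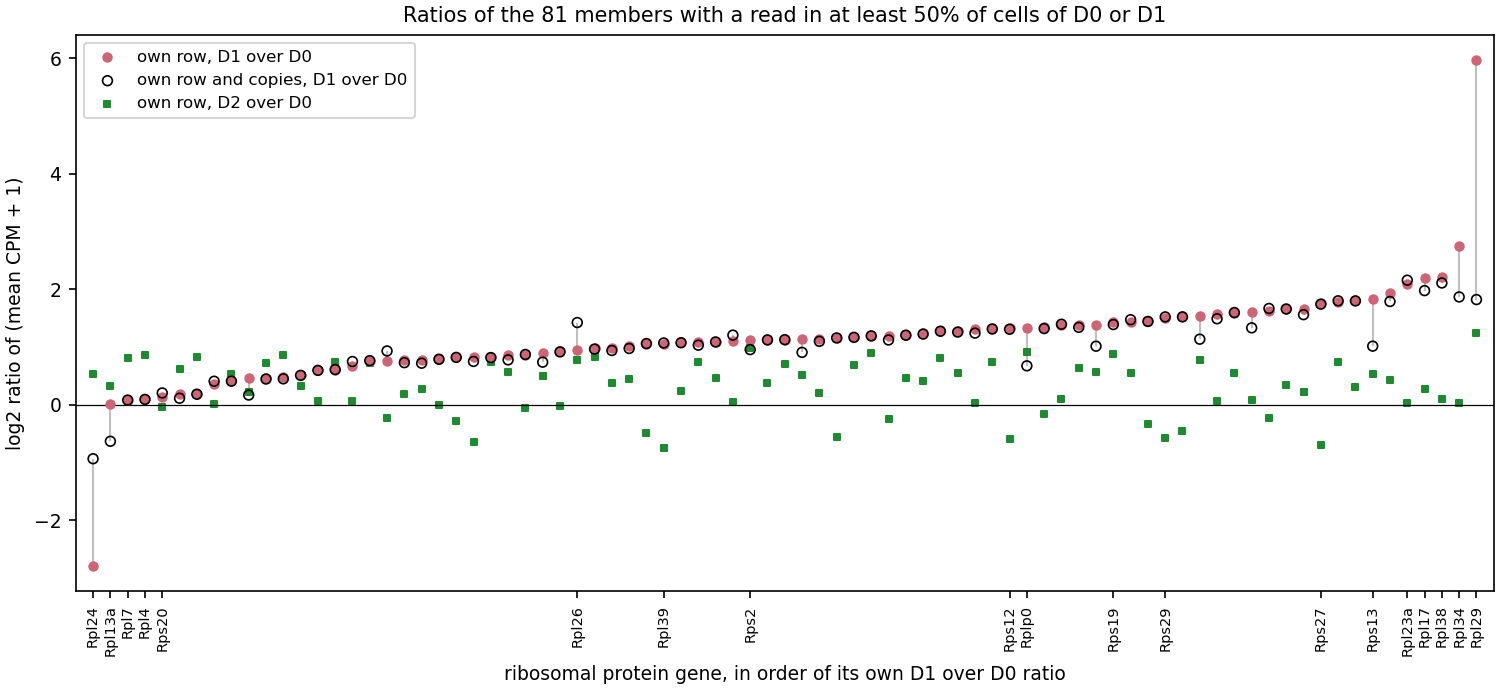
Log2 ratio of the mean CPM with 1 added (vertical axis) for 81 members in order of their own ratio of D1 over D0, with 19 of them named. Filled circles are D1 over D0 for the member's own row, from -2.79 (Rpl24) to 5.97 (Rpl29); open circles add the reads of its near-identical copies, which brings Rpl29 to 1.82 and Rpl24 to -0.94; squares are D2 over D0, from -0.76 to 1.24.

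The ratios of Rpl29, Rpl34 and Rpl24 moved with the division of reads between the gene and its near-identical copies. Copies were rows whose GENCODE vM21 transcript matches the coding sequence of a member with at least 90% identity over at least 50% of its length and does not overlap it in the genome. There were 935, of which 906 are annotated as pseudogenes, and 75 members had at least 1. The annotation used for the deposited counts is not given in the sources used here, so reads on a member and on its copies are uncertain one against the other. Stretches of 30 coding bases show how near such copies are, with the differing base in capitals, the member first and its most-read copy second.
Rpl29, bases 57 to 86: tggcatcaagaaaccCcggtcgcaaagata
Gm13841: tggcatcaagaaaccAcggtcgcaaagata
Rpl34, bases 117 to 146: gaaagcacctaaatcTgcatgtggcgtgtg
Rpl34-ps1: gaaagcacctaaatcCgcatgtggcgtgtg
Rps13, bases 396 to 425: gcgggtgctcccaccTaattggaaatatga
Rps13-ps1: gcgggtgctcccaccCaattggaaatatga
Rpl26, bases 162 to 191: agttcaggttgttcgCggacactacaaagg
Gm15772: agttcaggttgttcgTggacactacaaagg
Positions are counted from 1 at the A of the start codon, and the first substitution in each pair is C72A, T132C, T411C and C177T. Gm13841 differs from Rpl29 at 3 of 483 bases, with 227 identical bases in its longest run. Rps13-ps1 differs from Rps13 at 2 of 456 bases, with a longest run of 410, Rpl34-ps1 from Rpl34 at 2 of 354, and Gm15772 from Rpl26 at 2 of 438. The copies lie far from their members: Rps13 is on chromosome 7 and Rps13-ps1 on chromosome 8, and Rpl34 is on chromosome 3 and Rpl34-ps1 on chromosome 6.

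Rpl29, a large-subunit protein also known for binding heparin, is ENSMUSG00000048758.14 at chr9:106429454-106431568 on the plus strand (GRCm38). It had 0, 2.80 and 15.7 CPM in its lowest, median and highest cell of D0, 5.49, 294 and 643 CPM in D1, and 0, 6.20 and 95.6 CPM in D2. In D1, 48 of 50 cells lay above the highest cell of D0, while 72 of 90 cells of D0 and 86 of 93 of D2 had any read. Its 56 copies had 100 CPM in D0, 75.03 in D1 and 163 in D2, mostly on Gm13841 (53.3, 34.6 and 95.6 CPM) and Gm8210 (37.8, 25.9 and 65.99 CPM). Copies thus held 96.4% of the reads of member and copies together in D0, 20.3% in D1 and 94.1% in D2. The level of both summed was 104, 370 and 174 CPM, and its log2 ratio of D1 over D0 was 1.82 in place of 5.97. That of D2 over D0 was 0.73 in place of 1.24. The 2 cells of D1 without an Hprt read had 5.49 and 6.92 CPM on the Rpl29 row, and copies held 96.3% and 97.1% of their reads, within the range of D0 and of D2.

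The same division of reads separated D1 from the other labels in many families. Of 30 members whose copies held at least 10% of the reads in some label, the share on copies differed between D1 and D0 by over 10 percentage points for 14, and between D2 and D0 for 0. The median difference was 9.43 percentage points for D1 and 1.35 for D2. The share was lower in D1 than in D0 for 23 of the 30 and higher for 7. For Rps13, a small-subunit protein, it was 46.01% for D0, 4.32% for D1 and 48.6% for D2. For Rpl34 it was 49.3%, 6.25% and 50.4%, and for Rplp0 38.4%, 2.83% and 36.5%. For Rplp0 it did not overlap cell by cell once the 2 cells of D1 without an Hprt read were set aside. Its copies took 34.6% to 41.8% in the cells of D0, 34.3% to 40.7% in those of D2 and 0.441% to 6.35% in the 48 of D1 with an Hprt read, and 39.4% and 41.5% in the 2 without.

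Rpl26 and Rpl24 went the other way, with more reads on copies in D1. For Rpl26, at the exit of the tunnel, copies held 5.25% of reads in D0, 32.2% in D1 and 5.14% in D2, mostly on Gm15772. Rpl24, at the bridge between the subunits, is ENSMUSG00000098274.7 at chr16:55966275-55971435 on the plus strand and was the only member detected in 50% of cells with a lower mean in D1 than in D0. It had 7.67, 52.2 and 124 CPM in its lowest, median and highest cell of D0, 0.890, 3.93 and 89.7 CPM in D1, and 0, 76.7 and 184 CPM in D2. Copies held 11.9% of its reads in D0, 77.9% in D1 and 10.5% in D2, mainly Gm12254. With copies added its log2 ratio of D1 over D0 was -0.94 in place of -2.79, and that of D2 over D0 0.51 in place of 0.53. The 2 cells of D1 without an Hprt read had a mean of 67.3 CPM on the Rpl24 row, against 4.58 CPM in the other 48. Rpl24 also overlaps Gm28037 on the same strand, and Rpl13a overlaps Gm45713 in the same way; both overlapping rows are listed at 0 in every passing cell. Within D1, reads on Hprt moved with these divisions. The cells of D0 and D2 with an Hprt read kept the division of their own label, with copies at 36.5% to 41.4% of Rplp0 reads in the 9 of D0 and at 35.4% to 37.6% in the 7 of D2, and with at most 15.7 and 26.3 CPM on the Rpl29 row. What part the difference behind the divisions has in the ratios of D1 was not tested.

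**Figure D3:**
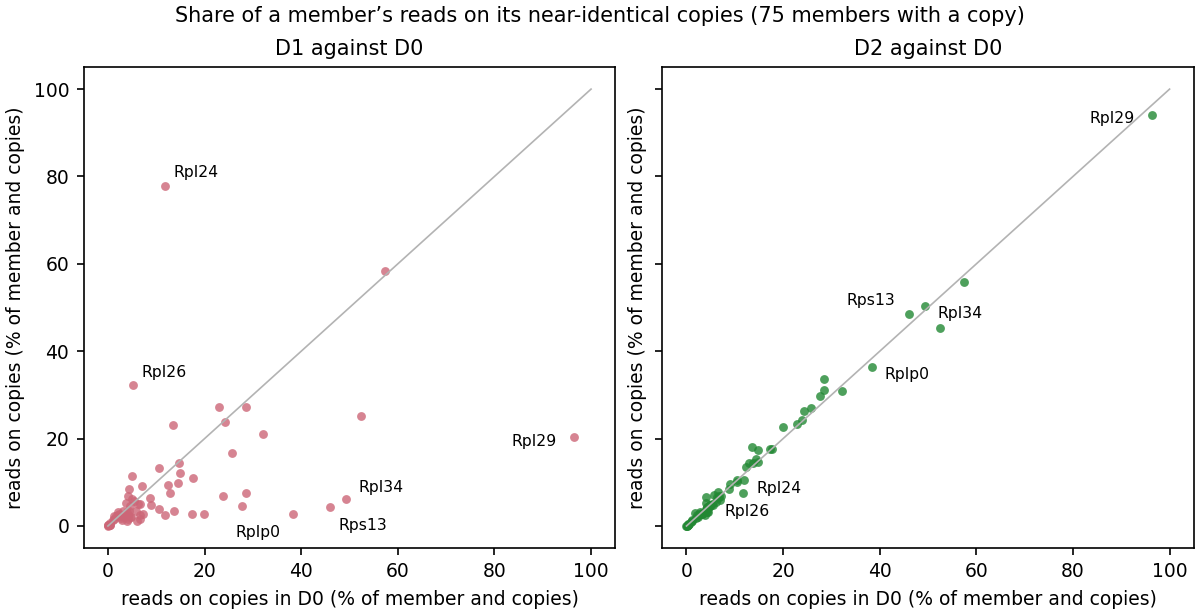
Share of reads on near-identical copies, in percent of the reads on a member and its copies, in D0 (horizontal axes) and in D1 (left) or D2 (right), 1 point per member with a copy; the line marks equal shares. In D2 no member with at least 10% on copies lies more than 7.13 percentage points from D0, while in D1 Rpl29 drops from 96.4% to 20.3% and Rpl24 moves from 11.9% to 77.9%.

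Adding all copies to their members left the group much as it was. The summed share became 6.13% ± 2.26 in D0, 11.9% ± 4.91 in D1 and 8.19% ± 2.00 in D2, and the median log2 ratio of D1 over D0 was 1.08, with 79 of 81 members above 0. That of D2 over D0 was 0.36, with 62 of 80 above 0. The range of the ratios narrowed, from -2.79 to 5.97 for the members' own rows to -0.94 to 2.15 with copies, and the members over 1 from the median went from 8 to 5. The range in D2 over D0 was -0.74 to 0.99. In D1 over D0, Rps13 moved from 1.84 to 1.01 and Rplp0 from 1.33 to 0.67, so that for Rplp0 the ratio of D2 over D0, 0.87 with copies, was the larger.

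Levels of different members were compared per kilobase of coding sequence. Reads from untranslated parts are counted too, so that a member with a short coding part in a longer transcript is raised. The annotated transcript of Rpl41 has 544 bases with 78 of them coding, that of Rps4x 975 with 792. The order per kilobase of whole transcript was not taken. Among 78 members with an annotated coding sequence and reads in most cells, the median was 1292 CPM per kb in D0, against 2777 in D1 and 1658 in D2. Rpl41, a peptide of the large subunit encoded in only 78 bases, was highest in each label, at 8129, 30966 and 10910 CPM per kb. It was followed in D0 by Rps29 (4730), Rpl39 (4287), Rpl5 (3487) and Rps20 (3061). In D1 Rps29 (13356), Rpl39 (8926), Rps27 (8729) and Rpl5 (8599) came next. In D2 they were Rps4x (4297), Rps27a (4125), Rps14 (3959) and Rpl7 (3913), so that Rps29, Rpl39 and Rps27 no longer stood among the highest. The order of the 79 members with a coding length had a Spearman rho of 0.90 between D2 and D0, 0.83 between D1 and D0 and 0.69 between D2 and D1. At the low end stood Rpl29, Rpl23a, Rpl13a, Rpl24 and Rpl17, with 7.73, 46.1, 86.6, 116 and 173 CPM per kb in D0. The 6 members with at least 30 copies had a median of 265 CPM per kb in D0, against 1251 for the 28 with at most 5, but over all 79 members the number of copies and the level had a rho of only -0.12.

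The size of a member's ratio went with its coding length, in opposite senses at 24 and 48 h. In D1 over D0, the 26 members with under 400 coding bases had a median log2 ratio of 1.39, the 31 of intermediate length 1.09 and the 21 with at least 600 bases 0.66. In D2 over D0 the same classes had 0.04, 0.46 and 0.57, and 14 of 26 short but 20 of 21 long members lay above 0, beside 42.2% of all genes detected. The TMM shift of 0.28 is larger than the median of the short class. Without the 2 cells of highest summed share in each label, a choice made after seeing the data, the medians were 0.11, 0.50 and 0.59 and 17 short and 20 long members lay above 0. Spearman's rho of length with the ratio was -0.50 for D1 over D0 against 0.45 for D2 over D0, across 78 members that share their libraries, and with copies added it was -0.59 and 0.45. In D2 over D1 it was 0.61, with medians of -1.50, -0.63 and -0.24.

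Other genes also varied with length, but not in this way at 48 h. Among 1203 other genes with a coding length and at least 200 CPM in D0 or D1, those under 400 bases had a median log2 ratio of D1 over D0 of 0.80, those of intermediate length 0.54 and those of at least 600 bases -0.26 (rho -0.47). Short and long members thus both lay above other genes of their length class. In D2 over D0, the medians of 1311 other genes at that level were 0.57, 0.64 and 0.10 (rho -0.34), so that short members lay below short genes and long members above long ones. The mitochondrial ribosomal proteins, which translate the mitochondrial genome, had medians between 0.77 and 0.85 in the 3 length classes in D1 over D0 and between 0.69 and 0.93 in D2 over D0.

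**Figure D4:**
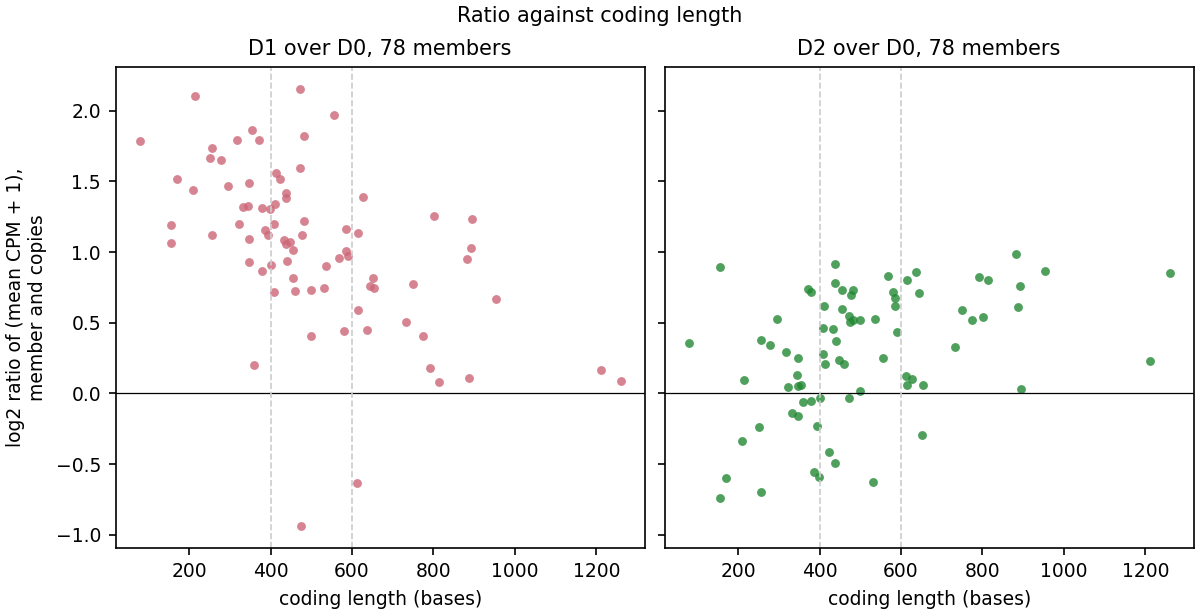
Log2 ratio of the mean CPM with 1 added for members with their copies (vertical axis) against coding length in bases (horizontal axis), D1 over D0 at left and D2 over D0 at right, 1 point per member; dashed lines stand at 400 and 600 bases. Points slope down at left (rho -0.59) and up at right (rho 0.45).

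Within a label, most members were higher in the cells where the other members were higher. The coefficient of variation (CV) of the summed share was 37.1% for D0, 41.3% for D1 and 24.5% for D2. The value of D0 rested on few cells: without its highest cell it was 28.9%, and in cells of middle depth (63 of D0, 10 of D1 and 72 of D2) the CVs were 18.2%, 48.5% and 22.2%, so that D0 then lay below D2. The part of capture and amplification in these spreads was not tested. A member's CPM and the summed share of the other members had a median Spearman rho of 0.73 in D0, 0.75 in D1 and 0.60 in D2. It was above 0 for 77 of 80, 77 of 81 and 80 of 80 members, and lowest for Rpl39 in D0 (-0.18), Rps2 in D1 (-0.12) and Rpl4 in D2 (0.15). Other genes detected in 50% of cells had median rhos of -0.02, -0.13 and -0.02 with the summed share. Among genes with a mean of 200 to 2000 CPM, the median CV was 43.3% for 65 members and 56.04% for 956 other genes in D0, 49.7% for 63 and 58.2% for 860 in D1, and 41.7% for 61 and 98.7% for 949 in D2.

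The steadiest members between cells were long, each of the 9 named next having over 600 coding bases. In D0 the lowest CVs were those of Rpl4 (23.6%), Rps4x (25.9%) and Rpl7 (25.96%), in D1 those of Rps3 (26.9%), Rpl10 (28.6%) and Rpl6 (29.2%), and in D2 those of Rps2 (23.6%), Rps6 (27.4%) and Rpl5 (27.4%). Rpl5, which with Rpl11 holds the 5S RNA and binds MDM2 when ribosome assembly stalls, was far from steady in D1, where its CV was 107%. Its lowest, median and highest cell of D1 had 2283, 4738 and 46169 CPM, while those of D0 ended at 7900 CPM and those of D2 at 6375 CPM. The highest CVs of D0 were those of Rps27l (213%), Rps28 (167%) and Rps27 (167%), and in D1 those of Rpl24 (190%), Rpl39l (170%) and Rps28 (127%). In D2 they were those of Rpl13a (160%), Rpl29 (126%) and Rpl39l (94.9%), so that the short Rps27 and Rps28, at 42.4% and 49.8%, no longer led. The D0 cell with the highest summed share (18.1%) was led by Rps27, with Rps28 among its leading members. The next (15.1%) was led by Rps27l. How far the high CVs of D0 rest on these cells was not tested.

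In D0 and in D1, the 2 cells with the highest summed shares were also those with most reads on short relative to long members. Reads on the 26 members under 400 bases, divided by those on the 22 of at least 600 (Rpl3l included), gave a ratio with a median of 0.441 in D0, 0.628 in D1 and 0.320 in D2. It was above 1 in 2 cells of D0, 8 of D1 and 0 of D2. In D0 those were the cells with the highest shares, 18.1% (ratio 2.65) and 15.1% (ratio 2.82). Rps27, Rps29 and Rps28 were among the leading members of the first, and the other was led by Rps27l, Rps20, Rpl5 and Rps29. They had 2342 and 3875 detected genes, the fewest of the label, against a median of 9002. In D1 the highest shares, 26.2% and 25.99%, went with ratios of 2.26 and 2.32, and Rpl5, Rps29, Rps27 and Rpl41 led in both. Those cells had 7683 and 9844 detected genes, against a median of 10676. The part of cell quality in these tails was not tested. The highest cell of D2, at 16.5%, had a ratio of 0.735 and the fewest reads of its label, 491549. Within a label, the ratio and the summed share had a Spearman rho of 0.00 in D0, 0.61 in D1 and 0.46 in D2. Short members took 1.21% ± 1.06 of reads in D0, 3.12% ± 2.35 in D1 and 1.21% ± 0.437 in D2, and long members 2.38% ± 0.491, 3.90% ± 0.865 and 3.54% ± 0.689. Without the 2 cells of highest summed share in each label, short members took 1.05% ± 0.247 in D0 and 1.16% ± 0.313 in D2, and long members 2.37% ± 0.488 and 3.50% ± 0.631.

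**Figure D5:**
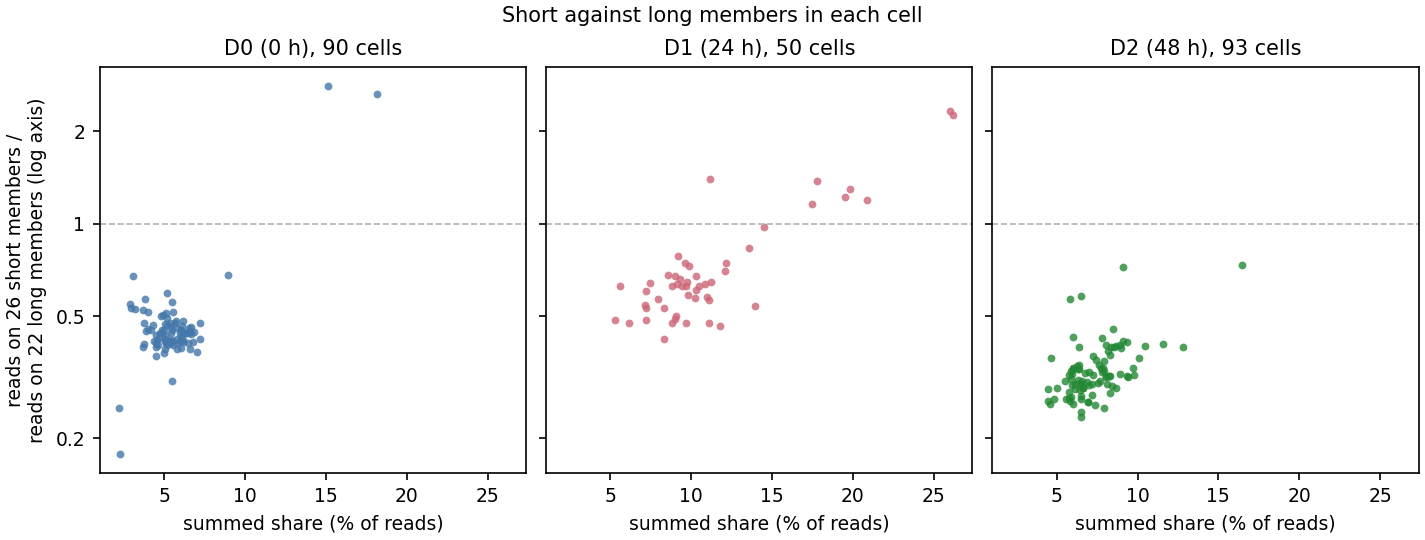
Reads on 26 short members divided by reads on 22 long members (vertical log axis) against the summed share of all members in percent of reads (horizontal axis), 1 point per cell and 1 panel per label; the dashed line marks a ratio of 1. It is passed by 2 cells of D0, 8 of D1 and 0 of D2.

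Measures of the cells moved with the summed share inside labels. Spearman's rho with the reads per cell was -0.47 for D0, -0.27 for D1 and 0.40 for D2, that with detected genes -0.31, -0.39 and -0.23, and with the mitochondrial share -0.27, -0.49 and -0.22. The study named 4 genes as signs of oxidative stress, together with ribosomal proteins, from a group of these same cells at D2, so that they are not independent of them. Of these, Ftl1, the light chain of the iron store ferritin, went with the share in each label (0.46, 0.57 and 0.42) and Mt1, a metallothionein, in D1 (0.54) but less in D0 (0.05) and D2 (0.14). Sod1 had 0.39, 0.15 and 0.15, and Prdx6 -0.15, -0.23 and -0.02. Relative to D0, the log2 ratio of Ftl1 was 2.19 at 24 h and 0.65 at 48 h, that of Mt1 0.75 and -1.23, that of Sod1 0.55 and -2.39 and that of Prdx6 3.65 and 3.01. The part of depth, cell quality or stress in the summed share was not tested.

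Several members have a paralog that is used in particular tissues, and reads of such pairs are uncertain where their sequences are alike. Rps27l, a close relative of Rps27, held as a share of the pair within cells 49.9% ± 12.96, 41.7% ± 12.7 and 68.4% ± 7.74, and the means of D0 and D1 lay within 1 SD of each other and that of D2 above both by more than their SDs. Rpl39l, the form of Rpl39 known from testis, was at 61.01 ± 63.6 CPM in D0, 140 ± 239 in D1 and 114 ± 108 in D2, and held 10.03% ± 9.37, 9.25% ± 10.7 and 20.3% ± 13.8 of its pair within cells, where D2 lay within its own SD of both. Rpl22l1, the paralog of Rpl22 and outside the rule, held 47.4% ± 21.5, 42.9% ± 19.9 and 55.3% ± 20.0, which differ by less than the SD between cells. Rps4l, an intronless relative of Rps4x, held 22.6% ± 7.61, 28.6% ± 8.98 and 21.8% ± 8.96, also within 1 SD of each other. Rpl10l, the intronless testis form of Rpl10 and also outside the rule, had 154 ± 98.5, 42.2 ± 57.5 and 547 ± 518 CPM. With 18.9% ± 11.03, 4.33% ± 6.66 and 28.4% ± 21.8 of its pair, it was lowest in D1, where Rpl10 itself was at 1106 CPM against 659 in D0. Rpl3l, the muscle form of Rpl3, was the member under 50% of cells in every label, with a read in 4 of 90, 7 of 50 and 1 of 93 cells.

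Relatives outside the rule went with the members in part. Fau, which encodes Rps30 fused to a ubiquitin-like protein, had 380 ± 206 CPM in D0, 1026 ± 694 in D1 and 576 ± 239 in D2, and Rack1, a signalling scaffold on the small subunit, 1489 ± 547, 2260 ± 819 and 2307 ± 888. The 78 mitochondrial ribosomal protein genes took 0.579% ± 0.159 of reads in D0, 1.03% ± 0.252 in D1 and 1.04% ± 0.264 in D2. Of 77 so detected, 74 lay above 0 at 24 h and 72 at 48 h relative to D0 (42.7% and 42.2% of all genes), with medians of 0.83 and 0.76, and D2 over D1 had a median of 0.02. Unlike the cytosolic members, this group was thus as high at 48 h as at 24 h. The difference between both groups was not tested.

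Genes for making ribosomes were mixed. The 30 assembly factors took 0.989% ± 0.174 of reads in D0, 2.06% ± 0.557 in D1 and 0.974% ± 0.224 in D2, and much of the difference lay in Npm1 (nucleophosmin, 3571, 9358 and 2845 CPM) and Ncl. In D1 over D0, 21 lay above 0 (42.7% of all genes) and 6 above 1 (13.2%), with a median of 0.61. In D2 over D0, 14 lay above 0 (42.2%), 6 above 1 (9.74%) and 5 below -1 (28.1%), with a median of -0.25. Nhp2 and Nop10, of the box H/ACA particles that modify ribosomal RNA, had the largest ratios at 24 h (2.20 and 1.73) and again at 48 h (1.49 and 1.48). Nat10, an RNA acetyltransferase, was at -0.75 in D1 over D0 but 1.08 in D2 over D0, and Noc2l at -0.66 and -1.14. Ncl (nucleolin) went from 1279 ± 387 CPM in D0 to 3202 ± 1962 in D1 and 687 ± 343 in D2, and Gnl3 (nucleostemin) from 295 ± 135 to 579 ± 510 and 102 ± 119. Of 14 genes for RNA polymerase I and its factors, relative to D0, 9 lay above 0 at 24 h (42.7% of all genes) and 8 at 48 h (42.2%), with Polr1d highest (1.78) and Taf1b lowest (-0.90) at 24 h and Polr1e highest (0.78) and Taf1d lowest (-1.81) at 48 h.

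Translation factors and some other genes listed for a TOP tract in their mRNAs were mixed in direction. Of 16, 8 lay above 0 in D1 over D0 (42.7% of all genes), 4 of them above 1 (13.2%) and 1 below -1 (25.1%), with a median of 0.04. At 48 h relative to D0 the numbers were 7 (42.2%), 2 (9.74%) and 3 (28.1%), with a median of -0.05. Both counts above 0 are close to those of all genes. Tpt1 (1.42) and Npm1 (1.39) had the largest ratios at 24 h, and Eif4b (-1.02) and the elongation factor Eef2 (-0.93) the smallest. At 48 h Btf3 (1.17) and Eif3h (1.11) led, and Nap1l1 (-2.24) and Eif4b (-1.48) were lowest. The summed share of these 16 genes was 1.89% ± 0.299 for D0, 2.54% ± 0.477 for D1 and 1.92% ± 0.349 for D2. Npm1, counted above with the assembly factors, is in this list too. The difference from the members was not tested.

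Among regulators, 3 of 14 genes of mTORC1 and LARP1 lay above 0 in D1 over D0 (42.7% of all genes, list median -0.32) and 7 in D2 over D0 (42.2%, list median -0.04), where the latter is close to all genes. Rps6kb1, the S6 kinase, was highest (1.21) and Tsc2, an inhibitor of the pathway, lowest (-1.20) at 24 h. At 48 h Rheb, the activator of mTORC1, was highest (1.33) and Rptor, its scaffold, lowest (-1.48), with a read in 85 and 22 of 93 cells of D2. Of the MYC family, which drives transcription of ribosomal genes, 5 of 8 genes were detected in 50% of cells of D0 or D1, of which 4 lay above 0 (42.7% of all genes) with a median of 0.68. Of 4 so detected in D0 or D2, 3 lay above 0 (42.2%), with a median of 0.70. Mnt, which antagonises MYC, was lowest in both, at -0.50 and -2.43, and had a read in 67 of 90, 38 of 50 and 7 of 93 cells. Myc was at 2.72 ± 7.67, 70.8 ± 75.7 and 73.6 ± 216 CPM, and had a read in 16 of 90, 47 of 50 and 34 of 93 cells. Mycn was at 48.2 ± 46.1, 140 ± 137 and 83.6 ± 150 CPM. Within labels, the summed share had a rho with Mycn of -0.05 in D0, -0.44 in D1 and -0.0037 in D2, and with Myc of 0.0055, -0.22 and -0.44. Of 10 genes of nucleolar stress and p53, 6 lay above 0 at 24 h (42.7% of all genes), with Trp53 highest (1.28) and Eda2r lowest (-1.78), and 7 at 48 h (42.2%), with Eda2r highest (1.08) and Trp53inp1 lowest (-1.47).

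The starts of the members were compared for sequences they share. RefSeq gave a start region for 60 of the 82 (GRCm38.p6), running from 250 bases before the annotated start to 50 after it. Stretches of 30 bases, from 10 before the start, are shown for 3 members with a TOP-like tract, which is in capitals, and for 4 without, picked after their values were seen. With copies added, the log2 ratios of D1 over D0 were 2.11 for Rpl38, 1.74 for Rps27 and 1.86 for Rpl34, and among those without a tract 1.79 for Rpl41, 0.09 for Rpl4, 0.18 for Rps4x and 1.01 for Rps13.
Rpl38, chr11:114668570-114668599, plus strand: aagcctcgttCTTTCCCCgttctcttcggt
Rps27, chr3:90213629-90213658, minus strand: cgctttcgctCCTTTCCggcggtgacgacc
Rpl34, chr3:130730379-130730408, minus strand: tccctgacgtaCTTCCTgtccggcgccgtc
Rpl41, chr10:128549149-128549178, minus strand: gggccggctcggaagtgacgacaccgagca
Rpl4, chr9:64173377-64173406, plus strand: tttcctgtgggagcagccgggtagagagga
Rps4x, chrX:102189372-102189401, minus strand: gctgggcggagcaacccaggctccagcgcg
Rps13, chr7:116334171-116334200, minus strand: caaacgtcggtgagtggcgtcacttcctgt
A TOP-like tract was counted where a C within 3 bases of the annotated start is followed by at least 4 bases that are each C or T, on the gene's strand. It was found in 24 of 60 members (40%) and in 11.6% of the starts of 27025 genes. In the window from 100 bases before to 50 after the start, on either strand, CCGGAA (the core bound by ETS factors) was found in 38.3% of members and 10.8% of all starts, and AAGATGG (the YY1 element) in 10% and 3.57%. TATAAA on the gene's strand was found in 8.33% and 4.93%. The median log2 ratio of D1 over D0 with copies added was 1.11 for the 24 members with a TOP-like tract and 1.03 for the 35 without, and in D2 over D0 it was 0.24 for 23 and 0.51 for 35. Members with CCGGAA were at 1.07 in D1 over D0, as were those without, and at 0.52 against 0.25 in D2 over D0. The 6 with AAGATGG were at 1.29 against 1.06 in D1 over D0 and at -0.04 against 0.45 in D2 over D0. For the 5 with TATAAA the values were 1.07 against 1.08 and 0.05 against 0.38. Annotated starts can lie some bases from the start that is used, so that no match says only that these letters are not in this window.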

How the data were processed

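Single-cell RNA-seq of 288 wells was analysed, 96 each of D0, D1 and D2, grouped by the sample titles. The authors deposited whole-number read counts per gene, not normalized. Per the labels, the processing notes name HISAT2 and GRCm38. The counting tool and annotation are not given in the sources used here. The sample descriptions name a normalized table, but the values are raw counts. Members and gene lists were chosen with earlier results of these data known.

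Counts were divided by the reads of the cell and scaled to 1000000 (CPM), then averaged over passing cells. Ratios used a pseudocount of 1 CPM. No doublet caller was run. Members were named from those over 1 (log2) from the members' median, the 5 largest and 5 smallest ratios per comparison, the 5 highest per kb, the 3 highest and 3 lowest CVs per label, those under 50% of cells and paralogs. For other lists genes came from the 2 largest and 2 smallest ratios. Some further genes (Rplp0 and Rpl26 families, Fau, Rack1, Ncl, Gnl3) were chosen after their values were seen, as were the length classes. Copies were found with BLAST+ 2.17.0 (blastn, plus strand) in GENCODE vM21 transcripts, each given to its best member. No molecular identifiers were counted, so intervals hold the error of counting alone. The ratio calculation was tried on simulated counts, and no value given here rests on them. Alternatives changed the cell filter, average, denominator, scaling (TMM, edgeR 4.0.16), pseudocount, detection limit, depth, plate side and members. Python 3.11.15 with pandas 2.3.3 and SciPy 1.17.1 was used. Some members are counted in the sums but not reported by name here.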

Additional observations from a re-analysis of the deposited data

Results flagged for a closer look

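Wells outside the filter enter none of the comparisons of the report, and only 1 of the alternatives below. Of 6, 46 and 3 such wells of D0, D1 and D2, those with over 10000 reads, 2, 7 and 2 in number, held members at a median of 16.2%, 15.8% and 9.64% of reads. They were picked out because reads on members appear there outside the cells described in the report, and 1 well of D0 reached 26.8%.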

How the results depend on the processing

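No paired analysis was possible because the wells are numbered by position on their plate only. No ratio of shares or median of member ratios turned sign under the alternatives run. Of 2757 ratios of the named members, 2643 moved by less than 0.5 and 101 changed sign, all of them with a reported ratio of at most 0.42 in size (Rplp0, Rps27l, Rps28, Rpl13a and Rpl39l among them). Below, shares are percentages of reads for D0, D1 and D2, and ratios are log2 for D1 over D0, D2 over D0 and D2 over D1, in that order where 3 are given. The cause of each shift was not tested, and the share of all genes was not counted under the alternatives. With all wells over 10000 reads the shares were 5.76, 11.7 and 7.42 (ratios 1.03, 0.36 and -0.66), with a stricter filter on reads and genes 5.36, 11.2 and 7.27 (1.07, 0.44 and -0.63), and with inner wells 5.63, 11.1 and 7.26 (0.98, 0.37 and -0.61). Summed reads gave 5.13, 9.96 and 7.69 (0.96, 0.58 and -0.37), median member ratios of 0.59 for D2 over D0 and -0.50 for D2 over D1, and 16 members higher in D2 than in D1. Medians over cells gave 5.40, 9.78 and 7.02 (0.86, 0.38 and -0.48) and a median member ratio of 0.93 for D1 over D0. Totals without mitochondrial genes gave 5.82, 11.6 and 7.47 (0.99, 0.36 and -0.63), and totals without members 5.91, 12.9 and 7.999 (1.13, 0.44 and -0.69), with a median member ratio of 1.24 for D1 over D0. TMM factors gave ratios of 1.17, 0.86 and -0.31, median member ratios of 1.26, 0.87 and -0.44, and 16 members higher in D2 than in D1. Median-of-ratios factors gave 1.06, 0.81 and -0.25, median member ratios of 0.82 for D2 over D0 and -0.38 for D2 over D1, and 18 members. Thinning to 200000 reads gave shares of 5.53 and 11.2 for D0 and D1. In cells of middle depth the shares were 5.50, 13.05 and 7.13 (1.25, 0.37 and -0.87), the CV of D0 was 18.2%, and the median member ratios were 1.29 for D1 over D0 and -1.01 for D2 over D1. Plate columns 1 to 6 gave 5.71, 10.8 and 7.98 (0.92, 0.48 and -0.43), median member ratios of 0.97 for D1 over D0 and -0.58 for D2 over D1, and 17 members higher in D2 than in D1. Columns 7 to 12 gave 5.37, 11.6 and 6.74 (1.11, 0.33 and -0.78), 1.22 and -0.93, and 6 members. Without the D1 cells lacking an Hprt read the share of D1 was 11.3 (1.04 for D1 over D0 and -0.62 for D2 over D1), and without Rpl29 11.2 (1.01 and -0.60). With 7 more ribosomal protein genes the shares were 5.78, 11.6 and 7.72 (1.01, 0.42 and -0.59). With rows named as pseudogenes they were 5.76, 11.4 and 7.69 (0.99, 0.42 and -0.57), the median ratios were 0.77 for D1 over D0 and -0.52 for D2 over D1, and 163, 136 and 58 rows were higher. The next 4 alternatives were chosen after seeing the data. Adding copies gave 6.13, 11.9 and 8.19 (0.96, 0.42 and -0.54), leaving out the cell with the highest share in each label gave 5.39, 10.9 and 7.27 (1.02, 0.43 and -0.58), and leaving out the 2 highest gave 5.28, 10.6 and 7.21 (1.00, 0.45 and -0.55) with a CV of 22.05% in D0. Without the D0 and D2 cells with an Hprt read the shares of D0 and D2 were 5.65 and 7.44, and the ratios 0.99, 0.40 and -0.59. A pseudocount of 10 CPM and no limit on detection moved no median of member ratios by over 0.1 and no count by over 1.5 times. The tail of shares rests on few cells, and genes near 1 CPM such as Rpl3l cannot be compared at this depth.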
